A study of Mus musculus with 16 samples.

Results

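The genes described here are 10 genes of the circadian clock and its direct output, namely Arntl, Clock, Per1, Per2, Per3, Cry1, Nr1d1, Nr1d2, Dbp and Tef, measured in the lumbar spinal cord of presymptomatic SOD1G93A mice and wild-type mice. They were chosen by name, as the non-control probes whose gene name in the array files equals one of these symbols, and so 10 of the 27962 genes named on the arrays, with 20 probes, are covered. Of these, 13 probes of 8 genes were bright enough to be tested. Per3 and Cry1 were not.

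The circadian clock is a feedback loop of transcription. Arntl (also called Bmal1) and Clock form the activator that binds E-box sequences and switches on the Period and Cryptochrome genes, whose proteins then repress that activator. In a coupled loop, the nuclear receptors encoded by Nr1d1 and Nr1d2 (Rev-erb alpha and beta) repress Arntl, and the transcription factors encoded by Dbp and Tef carry the rhythm to output genes through D-box sequences. Clocks of this kind run in neurons and glia as well as in liver and muscle, and the transcripts of Dbp, Nr1d1 and the Period genes are known for large swings over the day.

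Total RNA of 16 lumbar cord samples was hybridised to 2-colour whole mouse genome arrays, 4 arrays for each of 4 groups: wild-type at 40 days, SOD1G93A at 40 days, wild-type at 80 days and SOD1G93A at 80 days. SOD1G93A mice carry many copies of a human SOD1 gene with the mutation found in familial amyotrophic lateral sclerosis, and the wild-type mice are age-matched animals without the transgene. All animals were males of a mixed B6SJL colony and were held on a regular cycle of light and dark. The hour at which each animal was killed is not given in the sources used here, so hour of killing and genotype or age cannot be told apart.

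Each cord sample was labelled with Cy3 and set against a Cy5-labelled pool of RNA from neonatal heart, kidney and liver, so every value below is a log2 ratio of cord to pool, and a difference of 1 is a doubling of the ratio. Between 46.1% and 55.3% of the 41174 probes were well above background on an array, and each array correlated with every other of its group at r of 0.976 or more. All 5 markers tested of neurons, of astrocytes, of oligodendrocytes and of microglia and all 4 lumbar Hox genes were well above background on all 16 arrays. The 4 skeletal muscle markers varied between arrays of every group. Their score, the median deviation from their means over 16 arrays, was highest on SOD1G93A 40 days replicate 2, at 2.30. Within wild-type at 40 days, such scores ran from -1.28 to 1.74 for 4 peripheral myelin markers. For 5 meningeal fibroblast markers they ran from -1.17 to 0.88 in that group. The Sod1 probes are of the mouse gene and do not check the human transgene; the brightest ranged from 0.06 to 0.30 in wild-type and from -0.11 to 0.16 in SOD1G93A at 80 days. The study's methods speak of 5 animals in each group of the microarray experiment and of 4 samples in each group after arrays of low quality were left out, and the labels do not tie samples to animals. The p-values measure the spread between these samples.

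To show where motifs known from the clock occur near these genes, stretches upstream of the transcription start are printed from RefSeq (build GRCm38.p6). They are read 5′ to 3′ on the strand of the gene. The marked stretches are matches of letters, and binding or regulation through them was not measured here. Capitals mark, on either strand, the E-box CACGTG bound by the Arntl and Clock proteins, its variant CACGTT, the D-box TTATGTAA bound by Dbp and Tef, and the half-site AGGTCA of nuclear receptors. The members Dbp, Nr1d1 and Per1 are shown because they carry the differences described below, Tef, Cry1 and Per3 because their windows hold an E-box or D-box, and Ciart and Cry2 because they are the other clock genes that were higher in SOD1G93A at 80 days.
Dbp: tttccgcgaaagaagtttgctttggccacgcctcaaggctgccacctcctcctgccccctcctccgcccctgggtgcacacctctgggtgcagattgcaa
Nr1d1: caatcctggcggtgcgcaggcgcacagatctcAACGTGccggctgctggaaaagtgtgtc
Per1: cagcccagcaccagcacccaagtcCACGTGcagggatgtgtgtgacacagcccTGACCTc
Tef: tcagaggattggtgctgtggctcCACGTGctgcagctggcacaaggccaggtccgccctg
Cry1: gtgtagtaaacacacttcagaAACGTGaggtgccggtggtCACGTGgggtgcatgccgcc
Per3: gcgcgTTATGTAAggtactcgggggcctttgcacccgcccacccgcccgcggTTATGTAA
Ciart: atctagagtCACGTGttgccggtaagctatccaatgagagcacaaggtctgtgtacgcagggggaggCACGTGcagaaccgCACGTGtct
Cry2: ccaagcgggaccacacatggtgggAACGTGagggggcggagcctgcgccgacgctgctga
These lie at chr7:45705147-45705246 (plus strand) for Dbp, chr11:98775378-98775437 (minus) for Nr1d1, chr11:69098759-69098818 (plus) for Per1, chr15:81802523-81802582 (plus) for Tef, chr10:85185095-85185154 (minus) for Cry1, chr4:151044816-151044875 (minus) for Per3, chr3:95882264-95882353 (minus) for Ciart and chr2:92434200-92434259 (minus) for Cry2.

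Windows of equal length around the start were at hand for 9 of the 10 members; Per2 was not among them. The E-box was found for 3 of these 9 (Per1, Cry1 and Tef) and in 8.09% of all 27025 genes with a window. Its variant was found for Cry1 and Nr1d1 and in 5.44% of all genes, and the D-box, at 2 places, for Per3 alone and in 1.11% of all genes. The half-site was found for 4 of the 9 (Arntl, Clock, Per1 and Nr1d2) and in 18.1% of all genes. Ciart, a repressor of the Arntl and Clock activator, held 3 E-boxes in its window. The Dbp window held none of the 4 motifs, which speaks only of these letters in this window.

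At 80 days, Dbp and Nr1d1 were higher in SOD1G93A than in wild-type cords, and the other 6 members tested did not pass the test. Thus 2 of 8 members were called at an unadjusted p below 0.05 with limma, both higher, against 6.86% of all 21603 probes tested in this comparison. No member passed the Benjamini-Hochberg adjustment over all probes, where the smallest adjusted p among members was 0.683 and no probe on the array was below 0.05.

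Dbp, the output activator of D-box genes, was measured by 1 probe (A_51_P180492, at chr7:41886169-41886228 of build NCBI35, plus strand). Its log2 ratios at 80 days were 1.48, 1.57, 1.33 and 1.50 in wild-type and 1.70, 1.62, 1.74 and 1.66 in SOD1G93A. Every SOD1G93A array was above every wild-type array, and on each of the 4 slides, which carry 1 array of each group, the SOD1G93A array was the higher. The means were 1.47 ± 0.10 and 1.68 ± 0.05 (SD, n = 4), a difference of 0.21 ± 0.07 (SE) on the log2 scale or 1.16-fold, with p = 0.0105 and an adjusted p of 0.683 in limma and p = 0.0286 in the two-sided exact permutation test, the smallest that 4 against 4 arrays allow. Dbp was the only 1 of the 8 members tested whose groups did not overlap, as was the case for 4.31% of the probes measured on all 8 arrays. Its call held in each of the 12 other ways of processing and with any 1 array left out, where the difference ran from 0.16 to 0.28. Skeletal muscle is a tissue that also runs this clock. Its marker score, a median deviation over 4 markers, ran from -0.64 to 0.83 in wild-type at 80 days (median -0.52). In SOD1G93A at 80 days it ran from -0.62 to 1.09 (median 0.28). All 4 of these markers had higher means in SOD1G93A, by 0.19 to 0.54 with a median of 0.49, and 0 of 4 were called. Their part in the Dbp result was not tested.

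Nr1d1 was called higher by its brightest probe only. That probe (A_51_P223776) gave 0.55, 0.46, 0.16 and 0.26 in wild-type and 0.44, 0.58, 0.67 and 0.67 in SOD1G93A at 80 days. The groups overlapped, as the first SOD1G93A array lay below the first and second wild-type arrays, and the SOD1G93A array was higher on 3 of 4 slides. The difference was 0.23 ± 0.09 (SE; p = 0.0320 in limma, exact permutation p = 0.0857). The call was lost without wild-type replicate 3 or 4 or without SOD1G93A replicate 2, 3 or 4. Of 13 other settings it was also lost in 4, with local backgrounds as deposited (difference 0.21), in the processed signals of the scanner software (0.35), with the slide as a block (0.23) and by a dimmer probe. This dimmer probe (A_52_P130952), well above background on 9 of 16 arrays, gave a difference of 0.02 (limma adjusted p = 0.970), so that the tested probes of Nr1d1 disagree. A further probe (A_52_P130961), well above background on 1 of 16 arrays, was too dim to be tested. It was higher on all 4 slides, by 0.08 (exact permutation p = 0.257).

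**Figure D1:**
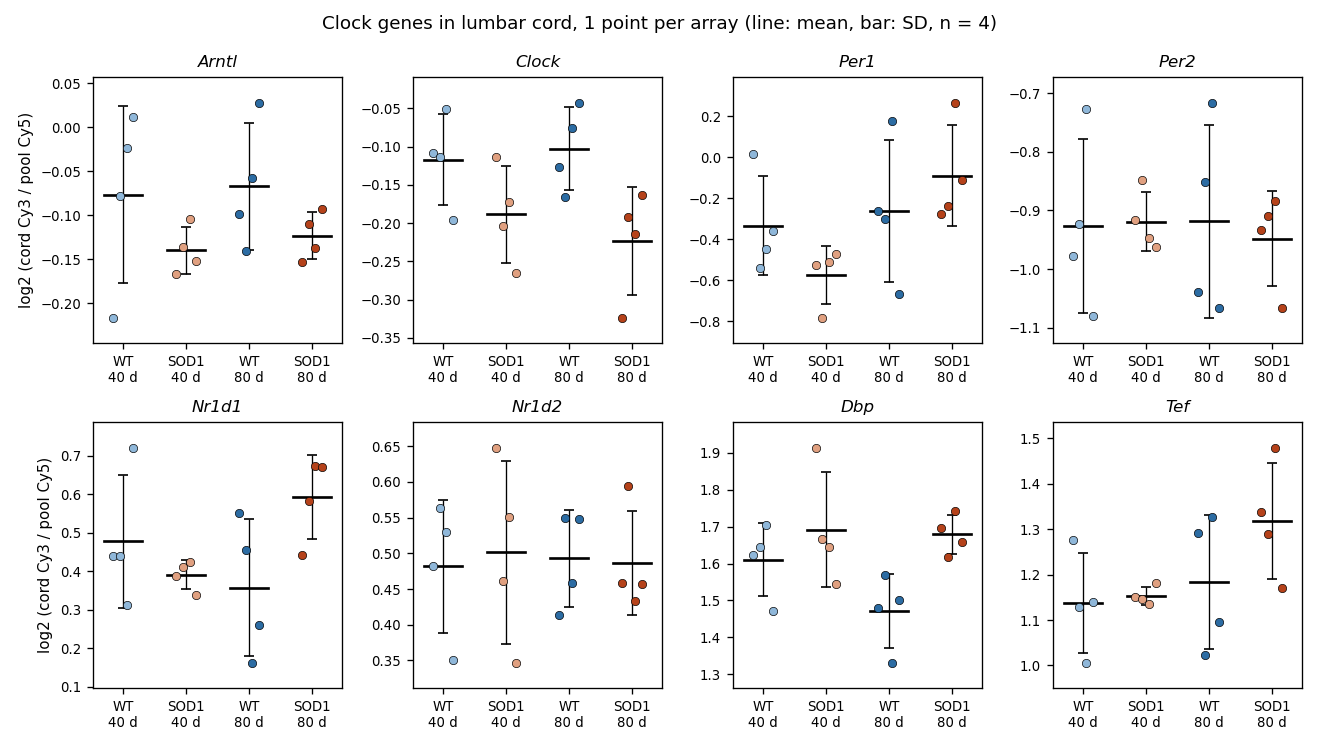
Log2 ratio of cord to reference pool for the brightest tested probe of 8 clock genes; each point is 1 array, set from left to right by replicate number, the line is the mean and the bar the SD of 4 arrays. For Dbp all 4 SOD1G93A arrays at 80 days lie above all 4 wild-type arrays of that age, and for Per1 all SOD1G93A arrays at 80 days lie above those at 40 days.

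Both activators had lower mean ratios in SOD1G93A at 80 days without passing the test. Clock was at -0.13, -0.17, -0.08 and -0.04 in wild-type and at -0.32, -0.19, -0.21 and -0.16 in SOD1G93A at 80 days, lower on all 4 slides, with groups that overlapped at 1 array each. Its difference was -0.12 ± 0.06 (SE, p = 0.0745 in limma, exact permutation p = 0.0571), with a 95% interval of -0.26 to 0.01. Over 14 other settings the difference ran from -0.13 to -0.0033, and it was called in 2 of them, without a filter on dim probes and with the spread taken from all 16 arrays. Clock is thus not shown to differ, nor to be equal. Arntl, the target of Rev-erb repression, differed by -0.06, with an interval of -0.19 to 0.07.

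Among the repressors, Per1 differed by 0.17 and Per2 by -0.03 between genotypes at 80 days, with 95% intervals of -0.21 to 0.55 and -0.22 to 0.16. Per1 also varied more between arrays of a group than most probes did. Nr1d2 differed by -0.01, with an interval of -0.15 to 0.13, so that a difference of the size seen for Dbp lies outside it. The brightest probe of Tef, a relative of Dbp, was higher on all 4 slides by 0.13 without passing the test (limma adjusted p = 0.780). A dimmer Tef probe (A_51_P450561) was higher in SOD1G93A by 0.13 as well (p = 0.0301 in limma, exact permutation p = 0.0286), with wild-type arrays at 0.31, 0.32, 0.28 and 0.29 and SOD1G93A arrays at 0.45, 0.38, 0.45 and 0.47. The third Tef probe tested (A_52_P173309) differed by -0.02.

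**Figure D2:**
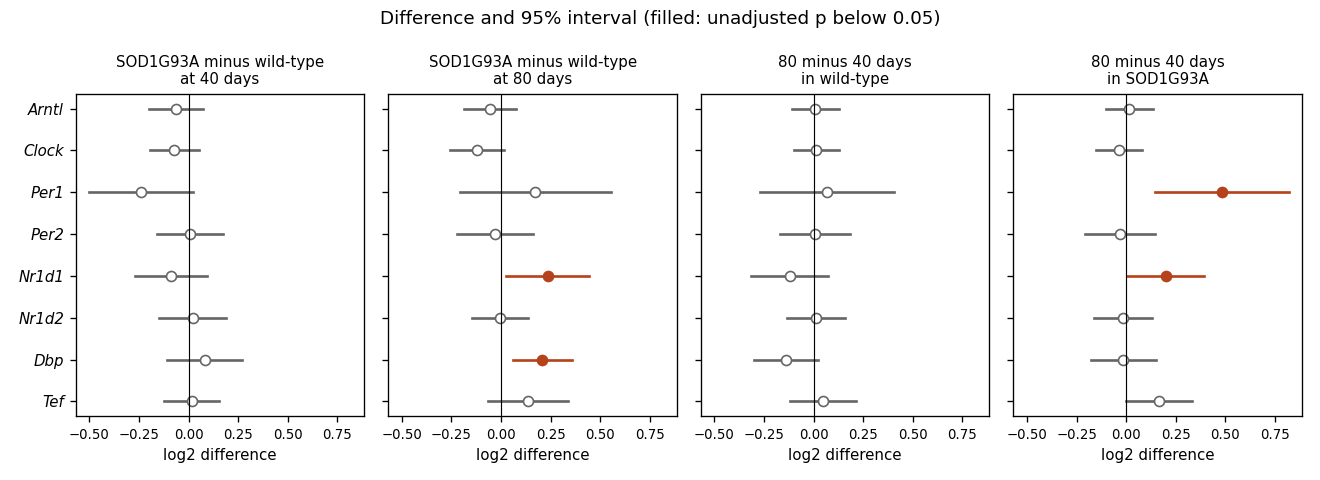
Difference in log2 ratio with its 95% interval from limma for 8 clock genes in 4 comparisons; filled red points have an unadjusted p below 0.05. Dbp and Nr1d1 are filled for genotype at 80 days, Per1 and Nr1d1 for age in SOD1G93A, and no gene is filled for genotype at 40 days or for age in wild-type.

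Other genes of the clock were read from a list of 19 (further activators, Cryptochrome, nuclear receptors, D-box and bHLH factors, kinases and ubiquitin ligases), of which 16 could be tested. At 80 days 2 of them, Ciart and Cry2, were higher in SOD1G93A, where 6.86% of all probes were called in either direction. The other 14 differed by -0.07 to 0.16 without passing the test. The median difference of the 16 was 0.08, and that of all probes tested was -0.0012. Ciart was at 0.58, 0.20, 0.58 and 0.60 in wild-type and at 0.79, 0.73, 0.98 and 0.89 in SOD1G93A at 80 days. It was thus higher on every SOD1G93A array than on any wild-type array, by 0.35 ± 0.10 (SE, p = 0.00520 in limma, adjusted p = 0.654, exact permutation p = 0.0286). The size of the difference depended on the processing, from 0.13 in the authors' series matrix and 0.14 in Cy3 alone, both called, to 0.72 in the processed signals of the scanner software. The call was lost in those signals, and also when arrays were not normalized within (0.40).

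Cry2, the partner of Cry1 in repression of the activator, was at 0.85, 0.79, 0.81 and 0.42 in wild-type and at 0.90, 1.08, 1.27 and 0.88 in SOD1G93A at 80 days. Here too the groups did not overlap, as was the case for 4.31% of the probes measured on every array of this comparison. The difference was 0.31 ± 0.12 (SE, p = 0.0221 in limma, adjusted p = 0.697, exact permutation p = 0.0286). The call held in the 12 other ways of processing, and was lost without wild-type replicate 4 (0.21), without SOD1G93A replicate 2 (0.30) or without SOD1G93A replicate 3 (0.23).

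**Figure D3:**
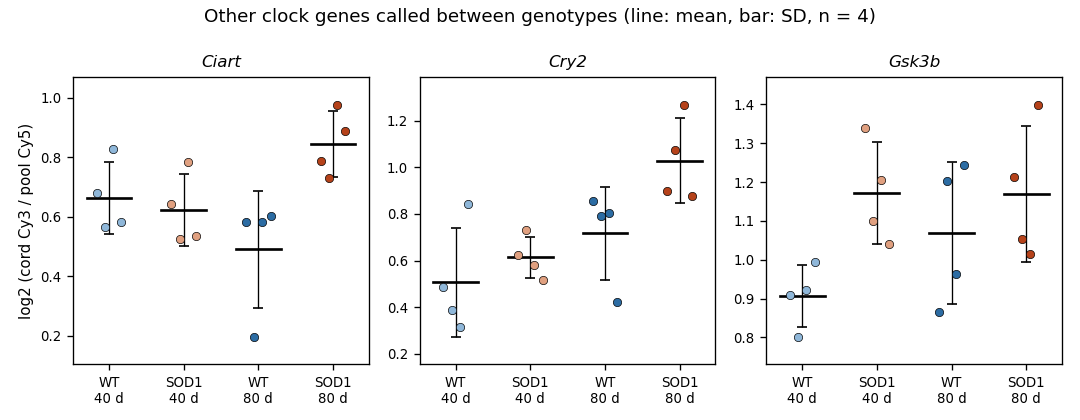
Log2 ratio of cord to pool for the 3 other clock genes called in a comparison of genotypes; points are arrays, lines means and bars SDs of 4 arrays. Ciart and Cry2 are higher in SOD1G93A at 80 days with no overlap, and Gsk3b is higher in SOD1G93A at 40 days with no overlap. At 80 days 4.31% of the probes measured on every array did not overlap. At 40 days 326 of 21247 such probes were higher and 276 lower without overlap.

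At 40 days none of the 8 members was called between genotypes, where 4.47% of all 21338 probes were. Differences of the 8 ran from -0.24 to 0.08, with a median of -0.03. Cell type markers differed over the same arrays. In SOD1G93A 2 of 5 astrocyte and 2 of 5 oligodendrocyte markers were called higher, and 0 of 5 neuron and 0 of 5 microglia markers were called. The median difference was -0.96 for peripheral myelin, -0.66 for meningeal fibroblasts and 0.82 for skeletal muscle, with 0 called in each. Their part in the results at 40 days was not tested. Dbp was at 1.62, 1.65, 1.70 and 1.47 in wild-type and at 1.91, 1.67, 1.65 and 1.54 in SOD1G93A. The groups overlapped, with a difference of 0.08 and a 95% interval of -0.11 to 0.27. Per1 was at 0.01, -0.54, -0.45 and -0.36 in wild-type and at -0.53, -0.78, -0.51 and -0.47 in SOD1G93A, lower on all 4 slides by 0.24 on average without passing the test (p = 0.0687 in limma, exact permutation p = 0.143). It passed in limma with the slide as a block and without wild-type replicate 2 (difference -0.31), and without wild-type replicate 1 the difference was -0.12. Of the 16 other clock genes 1 was called at 40 days, Gsk3b, a kinase with clock proteins among its many substrates, which was higher in SOD1G93A by 0.26 ± 0.07 (SE, limma p = 0.00530, adjusted p = 0.998, exact permutation p = 0.0286) with no overlap. Of 21247 probes measured on every array of 40 days, 326 were higher and 276 lower in SOD1G93A without overlap. The Gsk3b call was lost with the local backgrounds as deposited (0.23) and without normalization within arrays (0.05).

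Whether the genotype difference itself changed between the ages was tested by the interaction over all 16 arrays. Of the members 1 of 8, Nr1d1, was called, against 6.68% of all 21953 probes. Its genotype difference was larger at 80 than at 40 days by 0.32 ± 0.13 (SE, p = 0.0244 in limma, adjusted p = 0.711, exact permutation p = 0.0355). This call was lost without wild-type 40 days replicate 4 (0.24), wild-type 80 days replicate 3 (0.26) or wild-type 80 days replicate 4 (0.29), and in 5 of 12 other ways of processing, among them the dimmer probe (0.05). For Dbp the change was 0.13, with a 95% interval of -0.10 to 0.36, so a difference between the ages was not shown for this gene. For Per1 the change was 0.41 (exact permutation p = 0.107), with an interval of -0.06 to 0.89. Of the other clock genes 1, Ciart, was called, with a change of 0.40 ± 0.13 (SE, limma adjusted p = 0.602). The change was called with any 1 array left out, and not with local backgrounds as deposited (0.30), in the processed signals (0.61), in Cy3 alone (0.13) or in the authors' series matrix (0.12).

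From 40 to 80 days no member was called in wild-type cords, where 15.1% of all 21953 probes were. In SOD1G93A cords 2 of 8 were, Per1 and Nr1d1, both higher at 80 days, against 16.9% of probes. The share of members is thus near that of all probes. Per1, the Period gene that also responds quickly to neural and hormonal signals, was at -0.53, -0.78, -0.51 and -0.47 at 40 days and at -0.27, -0.24, 0.27 and -0.11 at 80 days in SOD1G93A. Every array of 80 days was above every array of 40 days, by 0.48 ± 0.16 (SE) or 1.40-fold (p = 0.00801 in limma, adjusted p = 0.145, exact permutation p = 0.0286). Such separation was common in this comparison. Of 21895 probes measured on all 8 SOD1G93A arrays, 1351 were higher and 1367 lower at 80 days without overlap. The Per1 call held in 11 other ways of processing and with any 1 array left out. Cell type markers moved over the same arrays. At 80 days 3 of 5 oligodendrocyte markers and 1 of 5 neuron markers were lower, 1 of 5 microglia, 1 of 5 meningeal fibroblast and 1 of 4 motor neuron markers were higher, and of 5 astrocyte markers 1 was higher and 1 lower, against 16.9% of all probes called. The median difference was -0.39 for oligodendrocytes, 0.31 for meningeal fibroblasts and 0.27 for microglia. Their part in the result was not tested. In wild-type cords, Per1 at 80 days spread from -0.67 to 0.18 and its difference from 40 days was 0.07, with a 95% interval of -0.27 to 0.41.

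Nr1d1 in SOD1G93A was at 0.39, 0.41, 0.42 and 0.34 at 40 days and at 0.44, 0.58, 0.67 and 0.67 at 80 days, again with no overlap (difference 0.20 ± 0.09, SE, p = 0.0431 in limma, exact permutation p = 0.0286). This call was lost when any 1 of the 4 SOD1G93A arrays of 40 days was left out and without SOD1G93A 80 days replicate 2, 3 or 4. It held in 6 of 12 other settings and was lost in 6, namely with local backgrounds as deposited (0.23), in the processed signals (0.30), in Cy3 alone (0.18), without normalization within arrays (0.19), with the slide as a block (0.20) and by the second probe. This second probe differed by 0.01 (exact permutation p = 0.943). Dbp in wild-type cords was lower at 80 than at 40 days by 0.14 (exact permutation p = 0.114) and in SOD1G93A cords by 0.01. Of the 16 other clock genes 4 were higher at 80 than at 40 days in SOD1G93A, where 16.9% of all probes were called. These were Cry2 by 0.42, Ciart by 0.22 and the kinases Csnk1d by 0.27 and Csnk1e by 0.46 (limma adjusted p from 0.0979 to 0.246). In wild-type 1 of the 16 was higher, Csnk1e by 0.49 (limma adjusted p = 0.206), where 15.1% of all probes were called. The comparisons share arrays, so the lower wild-type ratio of Dbp at 80 days enters both its genotype difference at 80 days and its age difference in wild-type.

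Per1 is itself an immediate early gene, and 9 further genes of that kind were tested beside it. From 40 to 80 days in SOD1G93A, 4 of the 9 rose: Junb by 0.56, Nr4a1 by 0.51, Ier2 by 0.29 and Btg2 by 0.28 (limma adjusted p from 0.104 to 0.207), where 16.9% of all probes were called. In wild-type 0 of 9 did, where 15.1% of all probes were called. At 40 days 2 of the 9 were lower in SOD1G93A than in wild-type, Nr4a1 by 0.42 and Ier2 by 0.25 (limma adjusted p = 0.998 for both), against 4.47% of all probes. At 80 days 1 of the 9, Arc, was higher by 0.34 (limma adjusted p = 0.708), against 6.86% of all probes. The genotype difference changed between the ages for 1 of the 9, Nr4a1 (by 0.66, limma adjusted p = 0.715), against 6.68% of all probes. Within groups, Per1 and the mean of the 9 genes moved with r of 0.66 and rho of 0.43 over 16 arrays. With slide means also taken out, r was 0.59. It was 0.31 without wild-type 80 days replicates 3 and 4, the 2 arrays on which Per1 lay farthest from its median. Leaving out the extremes of Per1 tends to lower r by itself, so this cannot show how far the relation depends on them. On these 2 arrays, Per1 stood at 0.44 above and 0.41 below its group mean and the 9 genes at 0.27 above and 0.22 below theirs. The part of these genes' variation in the Per1 result was not tested.

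**Figure D4:**
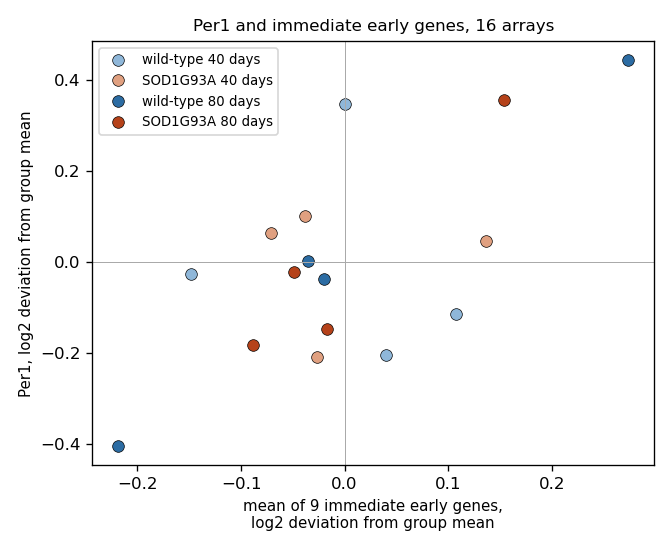
Deviation of Per1 from its group mean against the mean deviation of 9 immediate early genes, both in log2 ratio; each point is 1 of 16 arrays, coloured by group. The highest and the lowest point are both wild-type arrays of 80 days, and the other 14 scatter around 0 with r of 0.31.

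Genes that follow temperature or glucocorticoids rather than the clock alone were read from lists as well. Of 7 temperature-responsive genes, 2 were higher in SOD1G93A at 80 days: Rbm3, a cold-inducible RNA-binding protein, by 0.27 (limma adjusted p = 0.654) and the heat shock gene Hspa1a by 0.24 (limma adjusted p = 0.721), against 6.86% of all probes. From 40 to 80 days 2 of the 7 were higher and 1 lower in SOD1G93A, and 2 were higher in wild-type, against 16.9% and 15.1% of all probes. Rbm3 also rose from 40 to 80 days in SOD1G93A by 0.41 (limma adjusted p = 0.0114) and in wild-type by 0.18 (adjusted p = 0.275), and the difference between these changes was 0.23 (adjusted p = 0.744). Of 9 glucocorticoid-responsive genes 0 were called between genotypes at 80 days, and 1, Cdkn1a, was lower at 40 days, against 6.86% and 4.47% of all probes. Of 11 rhythmic output genes 0 were called between genotypes at 80 days, with differences of -0.09 to 0.14 and a median of 0.05, and 1, again Cdkn1a, was lower in SOD1G93A at 40 days. Of the cell type markers at 80 days, where 6.86% of all probes were called between genotypes, 2 of 5 oligodendrocyte markers were higher, 1 of 5 neuron markers was lower and 0 of 5 were called for microglia and for astrocytes. Oligodendrocyte scores at 80 days ranged from -0.21 to -0.01 in wild-type and from -0.20 to -0.05 in SOD1G93A, and the part of cell types in the clock results was not tested. In bulk cord, fewer cells of a type and less RNA per cell cannot be told apart.

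The members differed widely in how much they varied between arrays of 1 group. The pooled within-group SD was 0.25 for Per1, above 94.8% of all 21767 probes, whose median was 0.11. Dbp (0.11), Per2 (0.12), Tef (0.11), Nr1d1 (0.14) and Nr1d2 (0.09) lay between the 32.8th and the 68.7th percentile. By the brightest probe of each gene, the activators varied least, with 0.06 for both Arntl and Clock, above 5.78% and 4.45% of probes. Dimmer Clock probes had SDs of 0.09 (A_52_P334677) and 0.13 (A_52_P279391), above 30.8% and 64.1% of probes. Dimmer Tef probes (A_51_P450561 and A_52_P173309) both had an SD of 0.08. Per1 was the only 1 of the 8 tested above the 68.7th percentile.

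Within groups the members did not move as 1 block. Over 16 arrays with group means taken out, pairs of members ran from r of -0.58 (Per2 with Nr1d1) to 0.68 (Per1 with Tef). Dbp moved with Nr1d2 (r of 0.67, rho of 0.56, higher than for 98.9% of probes), and less so without SOD1G93A 40 days replicates 1 and 4 (r of 0.40). Dbp and Nr1d1, both called at 80 days, had r of -0.05 within groups. Arntl went against Per1 (r of -0.46), and with slide means also taken out this was -0.77. All these points share arrays, dye pool and normalization, so r is given as a description.

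**Figure D5:**
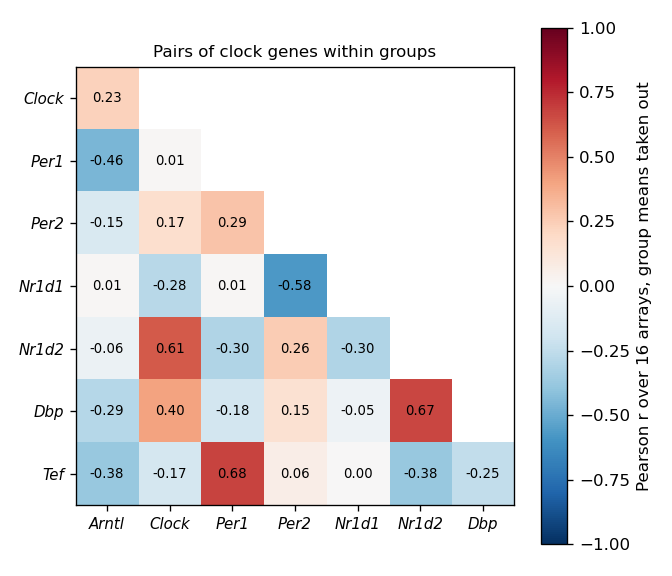
Pearson r over 16 arrays, with group means taken out, for each pair among 8 clock genes; red marks pairs that move together and blue pairs that move in opposition. The deepest red squares are Per1 with Tef (0.68), Nr1d2 with Dbp (0.67) and Nr1d2 with Clock (0.61), and the deepest blue is Nr1d1 with Per2 (-0.58).

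Of 14020 genes ranked by r with Dbp within groups, the 10 highest were Cog6 (0.83), Fhl2, Ptrh2, Spock1, Chst11, Pdcd2l, Strn, Chmp4b, 2210410P13Rik and Btf3l4 (0.79), and the 10 lowest were Heatr3 (-0.84), Cxx1b, 5730412N02Rik, Npr2, Zfp865, Spire2, AU042671, Map4, Rab35 and Dcaf5 (-0.75). None of these 20 is on the clock lists. The middle 95% of all probes lay between -0.53 and 0.59. The Clock probes A_52_P334670 and A_52_P334677, well above background on all 16 arrays, had r of 0.40 and 0.61 with Dbp. The third Clock probe tested (A_52_P279391) had r of -0.62. That probe was well above background on only 9 of 16 arrays and had no symbol through its RefSeq accession. For Nr1d1 the brightest probe had r of -0.05 with Dbp. Its dimmer probe (A_52_P130952), also well above background on 9 of 16 arrays, had r of 0.61.

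Per3 and Cry1 could not be followed. The probe for Per3 (A_51_P258493) was well above background on 0 of 16 arrays and those for Cry1 on 1 (A_51_P302204) and 0 (A_52_P420500), so their transcripts were not well above background here. Further activators that can stand in for Clock and Arntl, Npas2 and Arntl2, were well above background on 0 arrays. The probes of the other members were well above background on all 16 arrays when the brightest of each gene is taken.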

How the data were processed

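Agilent Feature Extraction 9.5.3.1, per the file headers, gave the deposited signal intensity of each spot in Cy3 (cord) and Cy5 (pool). From median signals and local backgrounds, a background more than 20 units above its spot (0 to 63 spots an array in Cy3) was set to the median of the array. Normexp with offset 50 and loess within arrays then gave log2 ratios, which the Aquantile step between arrays leaves as they are. Outlier spots (107 to 301 an array) and control spots were left out, and spots of a probe averaged. The authors' series matrix, deposited as log2 values, followed Cy3 (r of 0.998 or more) with medians of 6.40 at 40 days and 6.09 at 80 days, and served as an alternative. Its scaling between the ages is unknown, so its arrays were centred on their medians for comparisons between ages and for the interaction.

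Probes well above background on 3 of 4 arrays of 1 group in a comparison, and measured on 2 arrays of each group, were tested with limma 3.58.1 in R 4.3.3. Genotypes were compared within an age on 8 arrays, and ages and the interaction in 1 model of 16. A call is an unadjusted two-sided p below 0.05, as in the study's methods, with Benjamini-Hochberg values over all probes beside it. Exact permutation used all 70 splits, or 4900 for the interaction. The brightest tested probe stands for a gene. Array number limits the precision. Probe positions are those of the files (NCBI35). Of the 20 member probes, 17 matched the same symbol through RefSeq accessions.

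Slide n carries replicate n of each group, with each group always at its own position, and effects of position and of group cannot be told apart. Same-numbered arrays deviated together with r of -0.07 to 0.23, and not above 0.1 in every pair, so no block was used. The members, gene lists and tests were chosen with earlier results of these data known. Of the listed clock genes, 1 is not reported here. Named genes are the members, other clock genes with p below 0.05 between genotypes and the 10 most and 10 least like Dbp; immediate early and temperature genes were named after their values were seen. Columns of detection and error in the scanner files were otherwise not used here.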

Additional observations from a re-analysis of the deposited data

Results flagged for a closer look

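Nr1d2 in SOD1G93A at 80 days held 1 array apart from the other 3, at 0.59 against 0.43 to 0.46, a gap of 0.845 of the range of the group. Among 32 groups of 4 looked at (8 genes in 4 groups), this was the only 1, and chance gives about 1 in 20.

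The genotype difference changed between the ages for Nr1d1 (probe A_51_P223776, by 0.32), for Ciart (by 0.40) and for a dim probe of Tef (A_51_P450561, by 0.26, p = 0.00982 in limma, exact permutation p = 0.00816), whose brightest probe changed by 0.12 (p = 0.299).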

How the results depend on the processing

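The higher Dbp ratio in SOD1G93A at 80 days and the higher Per1 ratio at 80 than at 40 days in SOD1G93A passed the test under every alternative run on them and with any 1 array left out. Of 60 alternative values of called members, 45 kept direction and call and 15 lost the call, as did 15 of 64 values with 1 array left out.

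Between genotypes at 80 days the count of members called was 2, and 1 with local backgrounds as deposited, in the processed signals of the scanner software, or with the replicate block (slide), 3 without normalization within arrays or with array weights (Tef added), 3 without the filter on dim probes or with the spread of all 16 arrays (Clock added), and 1 to 2 with 1 array left out. At 40 days it was 0, and 1 (Per1) without normalization within arrays, with array weights or with the replicate block, and 0 to 1 with 1 array left out. For the change of the genotype difference it was 1, and 0 with local backgrounds as deposited, in the processed signals or in the authors' series matrix, 2 with array weights, 4 without normalization within arrays, and 0 to 1 with 1 array left out. For age in wild-type it was 0, and 1 without normalization within arrays (Dbp) or by the third brightest probe (Tef), 5 in the series matrix, and 0 to 1 with 1 array left out. For age in SOD1G93A it was 2, and 1 with local backgrounds as deposited, in the processed signals or in Cy3 alone, 7 in the series matrix, and 1 to 3 with 1 array left out. In the series matrix, with arrays centred on their medians, the age differences in SOD1G93A turned to 0.24 for Clock, 0.25 for Nr1d2 and 0.34 for Dbp. The median of all probes tested was then 0.16. The count of other clock genes called at 80 days was 2, and 1 in the processed signals, 4 in the series matrix, and 1 to 3 with 1 array left out, with 1 without wild-type replicate 4 or SOD1G93A replicate 2 or 3. Without normalization within arrays, r with Dbp was 0.38 for Arntl, 0.59 for Nr1d1 and 0.34 for Tef, and the within-group SD was 0.13 for Arntl and for Clock. The SD of Per2 was 0.08 with slide means taken out, and that of Dbp 0.20 in Cy3 alone and in the series matrix. The causes were not tested.

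Over all probes, calls at 40 days numbered 953, and 246 with local backgrounds as deposited, 1615 in the processed signals, 550 in Cy3 alone, 538 in the series matrix, 1881 without a filter on dim probes and 1894 without wild-type replicate 4. At 80 days they numbered 1481, and 2389 with array weights, 2412 without the filter and 974 without SOD1G93A replicate 3. For the change of the genotype difference there were 1466, and 797 with local backgrounds as deposited, 4308 without normalization within arrays and 2459 without the filter. For age there were 3307 in wild-type and 3714 in SOD1G93A, and 11576 and 10963 in the series matrix, and 5004 in wild-type without the filter. The share of calls that were higher was 54.6%, 54.5%, 46.6%, 45.0% and 51.1% in these 5 comparisons, in the order given, and 0.556%, 96.8%, 99.6%, 1.51% and 91.3% without normalization within arrays, where the median of all probes moved to -0.12, 0.08, 0.20, -0.11 and 0.08. It was 86.4%, 35.6%, 19.3%, 60.02% and 34.8% in the processed signals. With local backgrounds as deposited it was 40.2% at 40 days and 42.4% at 80 days, in Cy3 alone 70.4% at 40 days and 31.1% for the change, and in the series matrix 67.1% at 40 days and 98.4% and 98.5% for age.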
